A study of Mus musculus with 16 samples.

Results

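The 54 genes described here encode the machinery that copies DNA once per cell cycle, from the marking of origins to the packing of new DNA into chromatin. They were chosen by symbol and not by a cut on their measured values, though earlier results of these data were known. All 54 were found among the 49492 genes of the count table. All 54 also had enough reads to be tested, as did 15240 genes in total. They fall into 10 groups by role: origin recognition, licensing factors, the MCM helicase ring, origin firing, polymerases, the sliding clamp and its loader, single-strand binding and lagging-strand joining, nucleotide supply, fork protection and chromatin assembly.

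Replication starts when the origin recognition complex, helped by CDC6 and CDT1, loads the ring-shaped MCM helicase onto DNA in G1. In S phase the kinase CDC7 with DBF4, and the factors MCM10, CDC45 and GINS, turn the ring into a moving helicase that polymerases follow. Germinal centre B cells are among the fastest dividing cells of the body. Centroblasts, the cells of the dark zone, divide and mutate their antibody genes, and centrocytes, the cells of the light zone, compete for antigen and T cell help before some of them return to divide again.

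RNA came from germinal centre B cells of the spleen, sorted as B220+, FAS+ and CD38-, of C57BL/6J mice aged 3 months, 8 days after the mice received sheep red blood cells as antigen. Centroblasts were gated as CXCR4+ and CD86-, and centrocytes as CXCR4- and CD86+. Mutant mice had the genotype Ezh2(Y641F)fl/wt;Cγ1-cre+/-, with 1 conditional allele of the histone methyltransferase gene Ezh2 that carries a lymphoma mutation, and control mice had Cγ1-cre+/- alone, so the Cre was present in every group. This Cre is driven from the Cγ1 immunoglobulin locus, which is active mainly in germinal centre B cells after activation, and the counts do not tell recombined cells from others. There were 4 libraries in each of 4 groups, control centroblasts, mutant centroblasts, control centrocytes and mutant centrocytes. All mice carry the same litter label, the design calls the libraries biological replicates, and p-values measure the spread between these libraries.

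Among the promoters of the genes were sites of the kind bound by E2F factors, the transcription factors best known for driving genes of S phase. RefSeq promoters of the build GRCm38.p6 matched 45 of the 54 genes, and 9 of these 45 held TTTCCCGC, TTTCGCGC, TTTGCCGC or TTTGGCGC, on either strand, in the 250 bases before the start. The share with 1 of these motifs was 3.96% over all tested genes with such a promoter, and 1.86% over all promoters. The sites of the genes that fell in a genotype comparison or lead their role by level are shown, 5′ to 3′ on the strand of the gene, with the motif in capitals. Both Mcm6 sites lie on the minus strand of chromosome 1, at chr1:128359797-128359826 and chr1:128359734-128359763, and the Gins3 and Cdc6 sites lie on the plus strand at chr8:95633507-95633536 and chr11:98908002-98908031. Distances are to the RefSeq start, which can differ from the GENCODE start. The GENCODE spans begin at 95633453 for Gins3 and 98907801 for Cdc6, so their sites lie inside these spans. Both Mcm6 sites lie before the GENCODE start of Mcm6 (128359664).
Mcm6, 110 bases before the start: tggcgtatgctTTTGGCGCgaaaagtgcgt
Mcm6, 47 bases before the start: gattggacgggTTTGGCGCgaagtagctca
Gins3, 41 bases before the start: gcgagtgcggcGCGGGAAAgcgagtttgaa
Cdc6, 138 bases before the start: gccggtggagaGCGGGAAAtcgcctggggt
Within the Mcm6 site 110 bases before the start, a match on the other strand (GCGCGAAA, 106 bases before the start) overlaps the match in capitals. A match describes the letters only, and binding was not measured. In centroblasts 3 of the 9 genes with a motif and 10 of the 36 without were lower in mutants by edgeR, and in centrocytes 2 of the 9 and 8 of the 36. Between zones 6 of the 9 and 17 of the 36 were lower in centrocytes of controls, and 5 of the 9 and 8 of the 36 in those of mutants.

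The libraries held 35230563 to 44466911 counted reads. By Y-linked transcripts, libraries 1 and 2 of every group were male and libraries 3 and 4 female. Of the 12 germinal centre B cell markers all were tested, and their summed level was 8184 to 10292 CPM (read counts scaled to a common TMM-adjusted library size) over the 16 libraries. Of the T cell markers Cd3e was at most 0.364 CPM in any library, Lck, which made up most of the list's sum, was at 107.5 to 326 CPM, and Lck and Trac were higher in centrocytes of both genotypes. Of the follicular dendritic cell markers Cxcl13 was at most 0.0939 CPM, Cr2, which B cells also express, was at 154 to 739 CPM and higher in centrocytes of both genotypes, and Mfge8 was lower in mutants of both cell types. Their part in the results was not tested. The summed level of 15 macrophage markers was 27.0 to 83.8 CPM in control centroblasts, 35.7 to 105 in mutant centroblasts, 74.4 to 121 in control centrocytes and 50.5 to 331 in mutant centrocytes, where libraries 3 and 4 held 322 and 331 CPM. Ezh2 itself, the targeted gene, read 335, 305, 281 and 236 CPM in control centroblasts, 239.6, 256, 209.8 and 183 in mutant centroblasts, 254, 247, 224 and 256 in control centrocytes and 199, 179, 205 and 174 in mutant centrocytes, and these counts hold both alleles together.

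Control centroblasts held the most replication transcripts and mutant centrocytes the fewest. Summed over the 54 genes, the level was 12909, 12900.0, 13169 and 13772 CPM in control centroblasts and 10865, 10561, 10475 and 10853 CPM in mutant centroblasts. In control centrocytes it was 11144, 9379, 9538 and 9311 CPM, and in mutant centrocytes 8515, 8282, 8516 and 9182 CPM. The mutant libraries lay below all control libraries of the same cell type, and the centrocyte libraries of each genotype lay below all of its centroblast libraries. Control centrocyte library 1 stood above the other 3 of its group and above every mutant centroblast library. The mean share of counted reads was 1.32% ± 0.0409 (SD, n = 4) in control centroblasts and 0.862% ± 0.0388 in mutant centrocytes. The group with the highest mean was control centroblasts for 47 of the 54 genes, and the lowest was mutant centrocytes for 39. In RNA from sorted pools, fewer cells in S phase and less RNA per cell cannot be told apart.

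**Figure D1:**
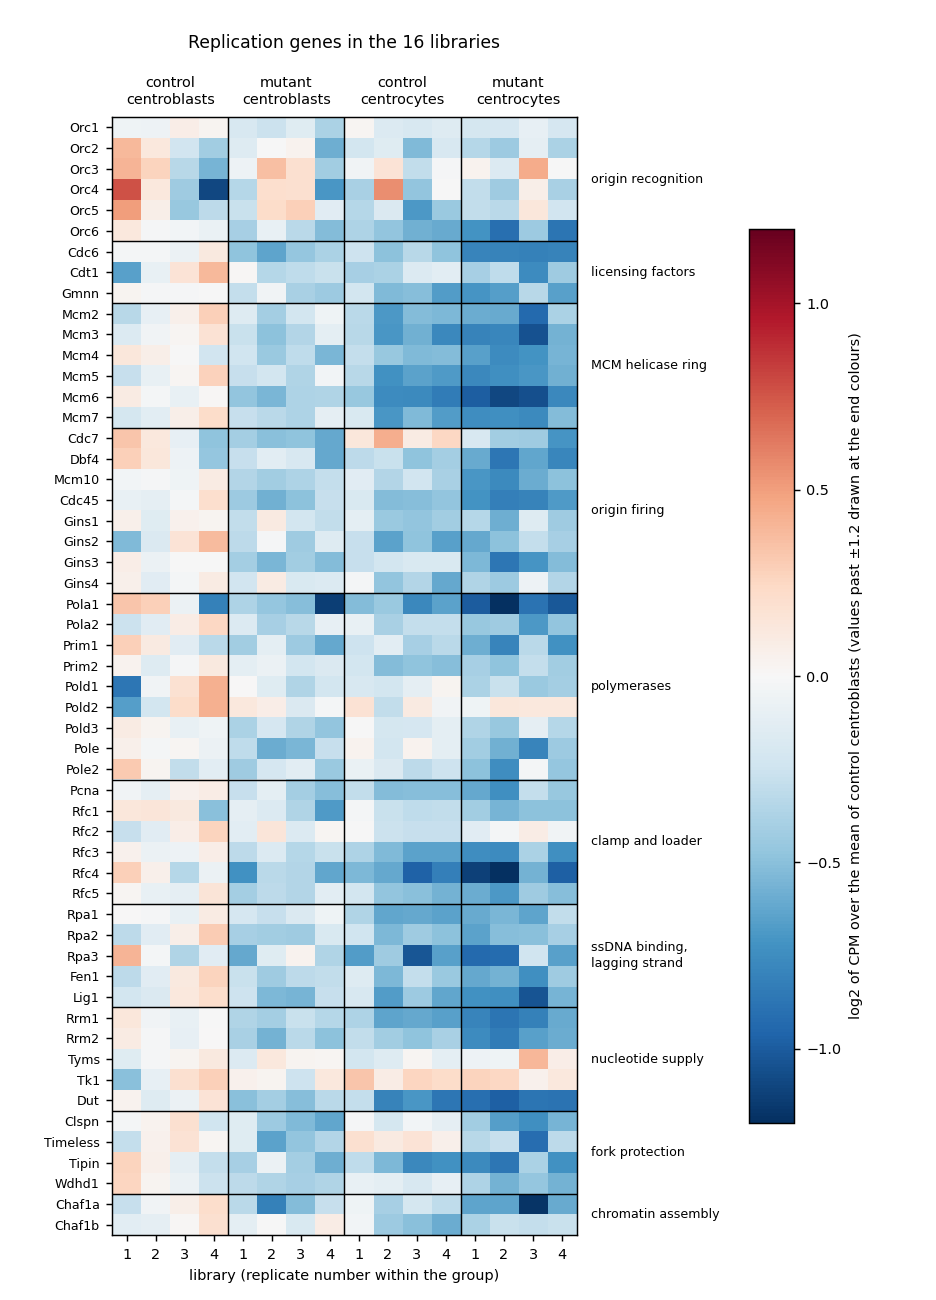
Log2 ratio of each gene's CPM in each of the 16 libraries (columns, by group) to its mean in control centroblasts, with the genes (rows) in order of role; blue is lower and red higher. Control centroblasts are the palest block because they are the reference, most rows turn darker blue towards mutant centrocytes, and Tk1 and Orc3 are among the rows that do not.

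The comparison of mutant with control centroblasts asks what 1 mutant Ezh2 allele changes in dividing germinal centre cells. Of the 54 genes 15 (27.8%) fell and 0 rose by the edgeR quasi-likelihood test (adjusted p below 0.05, Benjamini-Hochberg over all tested genes), where 6.4% of all tested genes fell and 4.06% rose. At an unadjusted p under 0.05, 33 were lower and 0 higher, and DESeq2 called 22 lower and 0 higher. The log2 fold change was below 0 for 50 of them, with a median of -0.30 against 0.01 for all tested genes. For 19 genes every mutant library was below every control library and for 0 above, where 8.01% and 6.36% of all tested genes were separated in this way. The falls were between 1.27-fold and 1.42-fold, and the largest were those of Cdc7 (-0.50), Cdc6 (-0.49), Gins3 (-0.47) and Chaf1a (-0.47). Pola1 differed by more without passing (-0.59 ± 0.20, SE, edgeR adjusted p = 0.0739). It passed with a replicate block (-0.57, 0.049) and with GC content and transcript length as an offset (-0.35, 0.0382). The count of falls was 8 without control library 2, 8 when only these groups entered the fit, and 24 when GC content and transcript length entered it as an offset. With that offset the median was -0.24 for the 54 genes and 0.05 for all tested genes. Among males alone 7 fell, with a median of -0.30. Among females alone 0 fell by edgeR, where 22 were lower at an unadjusted p under 0.05, with a median of -0.32 and 49 genes below 0. Each sex has 2 libraries per group.

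In centrocytes the same comparison gave 11 falls (20.4%) and 0 rises, where 9.15% of all tested genes fell and 7.37% rose. At an unadjusted p under 0.05, 19 were lower and 0 higher in edgeR, and DESeq2 called 12 and 0. The log2 fold change was below 0 for 43 of the 54 genes, with a median of -0.20 against 0.00 for all tested genes. The libraries were separated downwards for 18 genes and upwards for 0, where 12.4% and 11.1% of all tested genes were separated. The falls were between 1.24-fold and 1.58-fold, with Cdc7 (-0.66), Timeless (-0.57), Chaf1a (-0.51) and Clspn (-0.50) in front. The median was -0.33 in males and -0.08 in females, with 3 and 4 genes called. The 2 female mutant libraries are those with the high macrophage sum. Without them 5 genes fell and 48 were below 0, with a median of -0.23, and 2 of the 15 macrophage markers (Cd68 and Lyz2) were higher in mutants in the comparison of all libraries. With the GC and length offset 16 genes fell and 3 rose, Orc5 (0.51, adjusted p = 0.0136), Orc3 (0.37, adjusted p = 0.0139) and Tyms (0.36, adjusted p = 0.03). With that offset the median was -0.135 for the 54 genes and 0.077 for all tested genes.

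The genotype differences of centroblasts and centrocytes share no library, but the labels do not say whether same-numbered libraries came from the same mice. These differences ran alongside each other over the genes. Their Pearson correlation over the 54 genes was 0.84, and 0.74 over all tested genes, a description only, since the genes share libraries and samples. Of the 15 genes lower in mutant centroblasts 10 (10 of 11 from the side of centrocytes) were also lower in mutant centrocytes: Cdc6, Cdc7, Mcm10, Cdc45, Gins3, Pole, Rrm2, Clspn, Wdhd1 and Chaf1a. Such overlap was common: of all tested genes 976 were lower in mutant centroblasts and 1394 in mutant centrocytes, and 771 in both. By edgeR Mcm4, Mcm6, Pold3, Rrm1 and Dut passed in centroblasts and not in centrocytes, and Timeless in centrocytes and not in centroblasts. Under other settings Mcm6 passed in centrocytes (DESeq2, adjusted p = 0.0437), as did Dut with the GC and length offset (0.0322), and Timeless passed in centroblasts with that offset (0.00684).

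**Figure D2:**
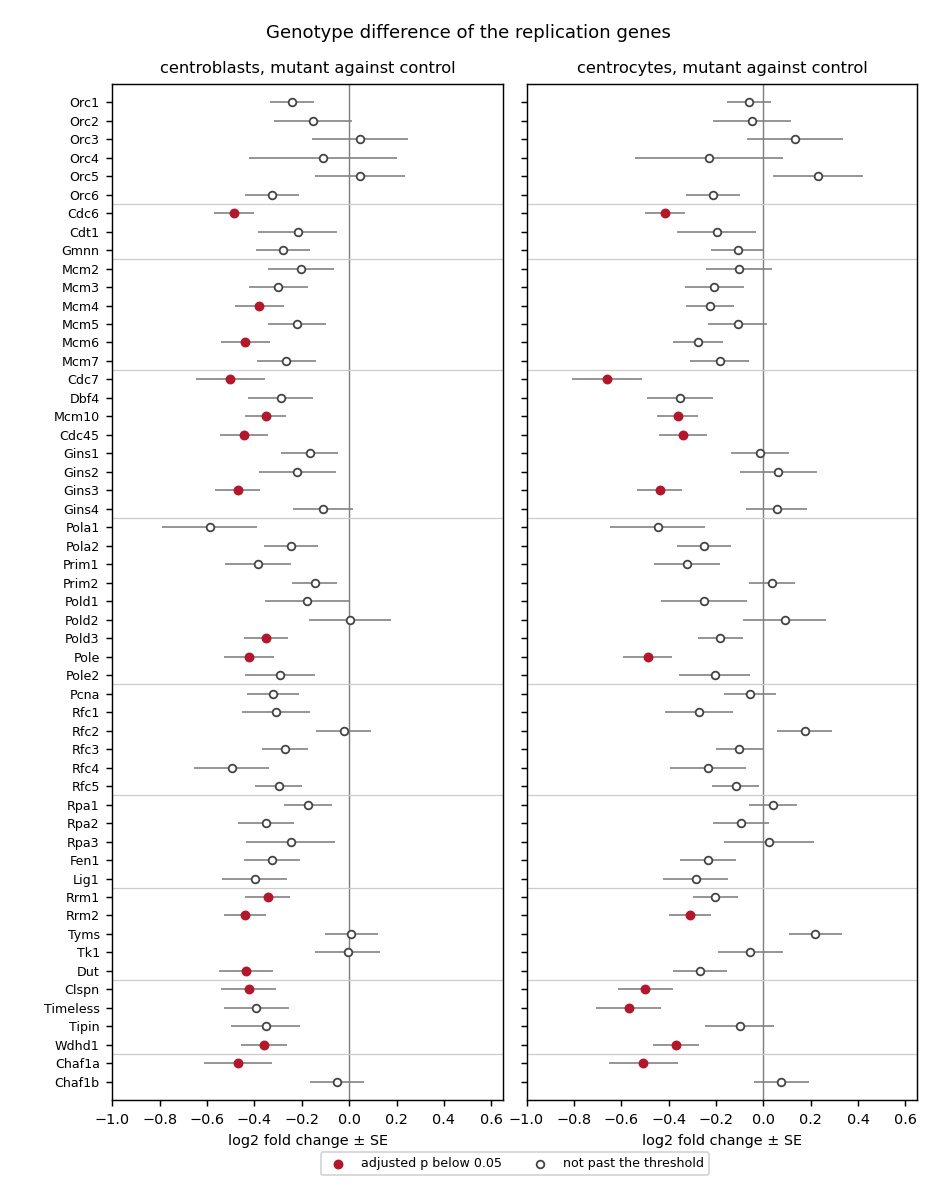
Log2 fold change of mutant against control (x axis, with the SE of the edgeR fit) for the 54 genes in order of role, in centroblasts on the left and centrocytes on the right; filled points have an adjusted p below 0.05. Filled points, 15 on the left and 11 on the right, all lie left of 0, and most open points do too.

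Centrocytes of control mice held lower levels of many replication transcripts than their centroblasts. Of the 54 genes 29 (53.7%) fell and 0 rose by edgeR, where 12.9% of all tested genes fell and 14.9% rose. At an unadjusted p under 0.05, 33 were lower and 0 higher, and DESeq2 called 32 and 0. The log2 fold change was below 0 for 51 genes, with a median of -0.37 against 0.01 for all tested genes. The libraries were separated downwards for 21 genes and upwards for 0, where 12.3% and 15.4% of all tested genes were. The 5 largest falls were those of Rfc4 (-0.73), Mcm6 (-0.70), Rpa3 (-0.68), Dut (-0.65) and Pola1 (-0.59). The median was -0.28 in males, with 8 falls, and -0.44 in females, with 27. Control centrocyte library 1 is the highest of its group in the summed level, and without it 30 genes fell, with a median of -0.44. With a block within each genotype 25 fell, with Fen1, Gins1, Gins2 and Mcm10 lost (adjusted p = 0.0656, 0.0526, 0.0563 and 0.0506). Of 12 markers of naive follicular B cells 6 were higher and 1, Foxp1, was lower in control centrocytes. The 12 markers summed to 1098 to 1165 CPM in control centroblasts and 1777 to 1960.2 CPM in control centrocytes, and their part in the falls was not tested.

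The zone comparison was then made within mutants. Of the 54 genes 13 (24.1%) fell and 0 rose, where 7.07% of all tested genes fell and 8.92% rose. At an unadjusted p under 0.05, 27 were lower and 0 higher in edgeR, and DESeq2 called 18 and 0. The log2 fold change was below 0 for 47, with a median of -0.25 against 0.02 for all tested genes. For 18 genes the centrocyte libraries lay below all centroblast libraries and for 0 above, where 10.5% and 11.5% of all tested genes were separated. The 5 largest falls were those of Mcm6 (-0.53), Mcm3 (-0.49), Dut (-0.48), Mcm5 (-0.48) and Dbf4 (-0.43). Same-numbered mutant libraries deviated together, and with the number as a block 14 genes fell, Mcm2 in addition (adjusted p = 0.0405). With a block within each genotype 14 fell as well, with Cdc45 and Mcm10 lost (adjusted p = 0.0657 and 0.0612) and Mcm2, Rfc4 and Rpa3 gained (0.0497, 0.0156 and 0.0439). The count was 7 without mutant centroblast library 3 or 4 or mutant centrocyte library 1 or 2, and 26 with the GC and length offset. With that offset the median was -0.28 for the 54 genes and -0.04 for all tested genes. Among males 7 fell, with a median of -0.32, and among females 0 by edgeR, where 12 were lower at an unadjusted p under 0.05, with a median of -0.19. In this comparison 5 of 15 macrophage markers and 6 of 12 naive B cell markers were higher in centrocytes, and 0 of either list were lower.

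Of the 29 genes that fell in centrocytes of control mice 12 also fell in those of mutants, which is 12 of the 13 there, with Dbf4 the exception. The same overlap over all tested genes was not counted. The Pearson correlation of both zone differences was 0.88 over the 54 genes and 0.78 over all tested genes. The interaction of genotype and cell type asks whether the zone difference itself depends on the genotype. By edgeR 0 of the 54 genes passed, and 0% of all tested genes in either direction. At an unadjusted p under 0.05 there were 0 of the 54 genes and 429 of all tested genes, and DESeq2 called 0 and 1. The interaction was above 0, which means a smaller zone fall in mutants, for 42 of the 54 genes, with a median of 0.11 against 0.01, and 51.6% of all tested genes were above 0. In females the median was 0.20, with 8 genes below 0, and in males -0.03, with 32 below 0.

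**Figure D3:**
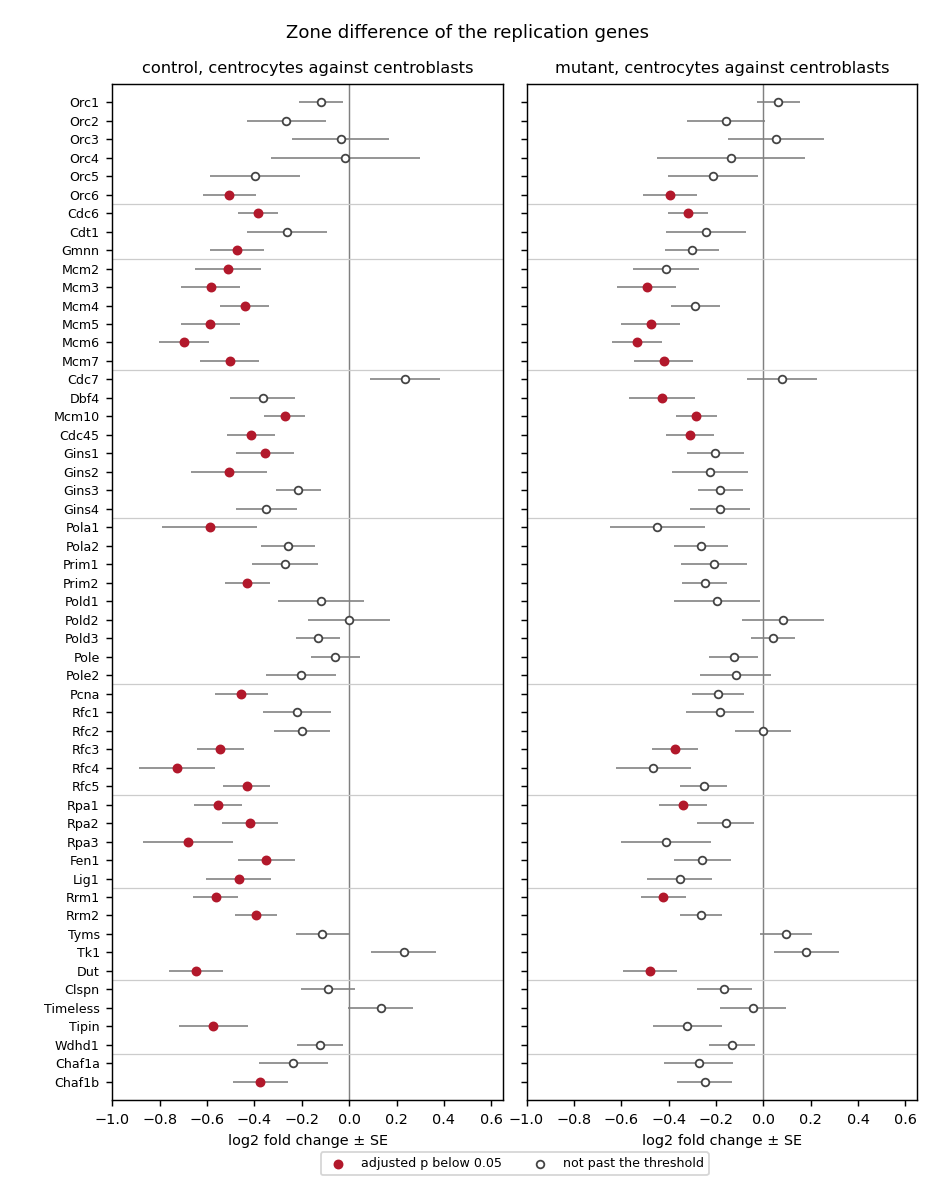
Log2 fold change of centrocytes against centroblasts (x axis, with the SE of the edgeR fit) for the 54 genes in order of role, in controls on the left and mutants on the right; filled points have an adjusted p below 0.05. There are 29 filled points on the left and 13 on the right, all below 0, and Cdc7 and Tk1 lie above 0 in both panels.

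Of the origin recognition genes only Orc6 passed in the reported edgeR fit, and only between zones. The origin recognition complex, ORC1 to ORC6, marks the places where replication can start and stays on chromatin for much of the cycle. By edgeR 0 of the 6 genes passed in either genotype comparison, where 2 in centroblasts and 0 in centrocytes had an unadjusted p under 0.05 and DESeq2 called 1 and 0. Orc6, the subunit least tied to the others, was the highest of the group in CPM. It read 136, 123, 122 and 118 CPM in control centroblasts and 94.7, 117, 99.7 and 87.0 in mutant centroblasts, which did not overlap, while the difference did not pass (-0.33 ± 0.11, SE, adjusted p = 0.0812). In control centrocytes it read 96.4, 90.1, 83.6 and 81.9 CPM and in mutant centrocytes 75.8, 66.9, 92.6 and 68.1, which overlap (-0.21 ± 0.11, adjusted p = 0.212). The genotype difference of Orc6 passed with the GC and length offset in centroblasts (-0.30, 0.00395) and centrocytes (-0.26, 0.00819), and in centroblasts also without mutant centroblast library 2 (0.0366) or mutant centrocyte library 3 (0.0367). Orc6 fell between centroblasts and centrocytes, alone in the group by edgeR, by 0.51 ± 0.11 on the log2 scale in controls (adjusted p = 0.00333) and by 0.39 ± 0.11 in mutants (adjusted p = 0.0249). The call in mutants was lost without mutant centroblast library 2 or 3 (adjusted p = 0.0904 and 0.0577) and without mutant centrocyte library 1, 2 or 4 (0.0556, 0.0844 and 0.0776). With the offset Orc5 (-0.61, adjusted p = 0.00293) and Orc2 (-0.30, 0.0357) were also lower in centrocytes of controls. As given above, Orc5 (0.51) and Orc3 (0.37) were higher in mutant than in control centrocytes with that offset. In the genotype comparison of centroblasts the SE of Orc2 to Orc5 was 0.16 to 0.31, so not passing does not show a small difference.

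Of the licensing factors, Cdc6 differed in every comparison. CDC6 is the ATPase that, with CDT1, loads the MCM ring onto ORC, and geminin (Gmnn) blocks CDT1 after S phase has begun. Cdc6 read 126, 125, 121 and 138 CPM in control centroblasts and 91.6, 82.2, 92.7 and 98.3 CPM in mutant centroblasts. In control centrocytes it read 108, 90.7, 101 and 91.2 CPM and in mutant centrocytes 73.6, 73.4, 72.8 and 73.2 CPM. No mutant library reached a control library of its cell type, and the mutant centrocyte libraries were nearly equal. By edgeR it fell by 0.49 ± 0.085 in mutant centroblasts (log2, SE, adjusted p = 0.00103), by 0.42 ± 0.085 in mutant centrocytes (0.00299), by 0.39 ± 0.085 between the zones of controls (0.0027) and by 0.32 ± 0.085 between those of mutants (0.0156). Both genotype calls stayed past the threshold whichever library was left out, with an adjusted p of at most 0.00582 and 0.0183. The gene lies at chr11:98907801-98923940, on the plus strand, and overlaps no exon of another gene.

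Gmnn averaged 122 ± 2.23 CPM in control centroblasts, 101 ± 12.5 in mutant centroblasts, 88.2 ± 12.1 in control centrocytes and 81.8 ± 10.4 in mutant centrocytes (SD, n = 4). It fell between the zones of controls (-0.47 ± 0.11, edgeR adjusted p = 0.0051). The differences between zones in mutants (-0.30 ± 0.11, adjusted p = 0.0811) and between genotypes in centroblasts (-0.28 ± 0.11, 0.138) and centrocytes (-0.11 ± 0.11, 0.547) did not pass. With the GC and length offset Gmnn passed in centroblasts (-0.33, 0.0157), and in centrocytes with the offset and a replicate block (-0.23, 0.0325). Cdt1 passed in no comparison of the reported fit, and with the offset it was lower in mutant centroblasts (-0.27, adjusted p = 0.0364) and in centrocytes of controls (-0.50, 0.000236) and mutants (-0.43, 0.00139).

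The MCM helicase ring fell as a whole between zones. MCM2 to MCM7 form the ring that unwinds DNA, and cells load many more rings than they use. All 6 genes fell in control centrocytes, by 0.44 to 0.70 on the log2 scale, and 4 of the 6 in mutant centrocytes, where Mcm2 and Mcm4 passed as well with the GC and length offset (adjusted p = 0.00243 and 0.00685). Per kilobase of annotated exon the highest levels of the 54 genes in control centroblasts were those of ring genes, though not of the whole ring. Mcm6 averaged 245 ± 13.5, Mcm5 243 ± 39.9 and Mcm3 233 ± 22.9 CPM per kb (SD, n = 4), which do not differ beyond their spread. Mcm7 (104 ± 14.3) and Mcm2 (86.7 ± 15.6) lay below genes outside the ring such as Pcna (153 ± 9.38). At the other end Orc4 averaged 5.65 ± 2.99 CPM per kb.

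Mcm6 read 1223, 1122, 1073 and 1155 CPM in control centroblasts and 825, 781, 883 and 888 CPM in mutant centroblasts. In control centrocytes it read 834, 676, 675 and 638 CPM and in mutant centrocytes 575, 537, 550.0 and 669.9 CPM. The control centroblast libraries stood above all others, and mutant centrocyte library 4 reached into the range of control centrocytes. By edgeR Mcm6 fell by 0.44 ± 0.10 in mutant centroblasts (adjusted p = 0.0108), by 0.70 ± 0.11 between the zones of controls (0.000121) and by 0.53 ± 0.10 between those of mutants (0.00181). In centrocytes the genotype difference was -0.28 ± 0.10 (adjusted p = 0.0804), and 0.0468 without mutant centrocyte library 4. The gene lies at chr1:128331590-128359664 on the minus strand, and its E2F motifs are printed above with those of Gins3 and Cdc6.

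Mcm4 was the other ring gene lower in mutant centroblasts, with 665, 634, 600.0 and 516 CPM in controls and 513, 443, 488 and 413 CPM in mutants. The lowest control stood just above the highest mutant library. The fall was 0.38 ± 0.10 on the log2 scale (edgeR adjusted p = 0.024), and the call was lost without control library 1, 2 or 3 (adjusted p = 0.0593, 0.0715 and 0.0526) and without mutant library 2 or 4 (0.0687 and 0.0773). Mcm3 and Mcm5 differed by -0.30 and -0.22 between genotypes in centroblasts, neither past the threshold. Between the zones of mutants they fell by 0.49 ± 0.12 and 0.48 ± 0.12 (adjusted p = 0.0112 and 0.0132), and the call of Mcm5 was lost without mutant centroblast library 4 (0.0505).

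Of the 8 origin firing genes 4 fell in mutants of each cell type, and they were the same 4: Cdc7, Mcm10, Cdc45 and Gins3. CDC7 is the kinase that, with its partner DBF4, phosphorylates the loaded MCM ring. MCM10 is needed for the helicase to start moving, and CDC45 and the 4 GINS proteins are parts of the moving helicase.

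Gins3 read 38.5, 34.7, 36.3 and 36.4 CPM in control centroblasts, 27.5, 25.0, 27.4 and 25.4 in mutant centroblasts, 30.1, 31.3, 32.2 and 32.2 in control centrocytes and 25.0, 20.1, 22.3 and 25.4 in mutant centrocytes. Mutant and control libraries did not overlap in either cell type. It fell by 0.47 ± 0.094 in centroblasts (edgeR adjusted p = 0.00297) and by 0.44 ± 0.094 in centrocytes (0.00425), and both calls stayed whichever library was left out, with an adjusted p of at most 0.0195. Between zones Gins3 did not pass in controls (-0.21 ± 0.094, adjusted p = 0.0987). The other GINS genes, Gins1, Gins2 and Gins4, did not pass between genotypes, with differences of -0.22 to 0.06 on the log2 scale, although their proteins sit in the same complex. Gins3 lies at chr8:95633453-95645060 on the plus strand, and 67.3% of the exon bases of Gins2 are shared with Gse1 on the other strand, so the level of Gins2 is uncertain.

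Cdc45 read 151, 149, 158 and 185 CPM in control centroblasts, 119, 108, 114 and 133 in mutant centroblasts, 142, 112, 113 and 115 in control centrocytes and 97.7, 91.2, 92.3 and 100.4 in mutant centrocytes. The genotypes did not overlap in either cell type, and the first control centrocyte library stood far above the other 3. It fell in mutant centroblasts (-0.44 ± 0.10, edgeR adjusted p = 0.00817), in mutant centrocytes (-0.34 ± 0.10, 0.0306) and between the zones of controls (-0.41 ± 0.10, 0.00589) and of mutants (-0.31 ± 0.10, 0.0461). The call in centrocytes was lost without control library 1, 3 or 4 (adjusted p = 0.0844, 0.0527 and 0.0514) or mutant library 2 or 3 (0.0788 and 0.0666). The zone call in mutants was lost on leaving out 12 of the 16 libraries, all but control centroblast 1 and 4, mutant centroblast 2 and control centrocyte 1, with an adjusted p of up to 0.151.

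Mcm10 averaged 134 ± 6.36 CPM in control and 105 ± 3.95 CPM in mutant centroblasts, and 111 ± 9.02 CPM in control and 86.3 ± 7.38 CPM in mutant centrocytes (SD, n = 4). The libraries did not overlap between genotypes. It fell by 0.35 ± 0.086 (edgeR adjusted p = 0.0126) and by 0.36 ± 0.086 (0.00846), with an adjusted p of at most 0.0407 whichever library was left out. Both calls were lost without the filter on low counts (0.111 and 0.056) and with the GC and length offset and a replicate block (-0.23, 0.0716, and -0.22, 0.0643). Cdc7 read 99.3, 85.7, 73.7 and 56.2 CPM in control centroblasts, a wide spread, and 59.2, 55.6, 56.2 and 51.3 CPM in mutants. In centrocytes it read 86.7, 106, 84.1 and 93.7 CPM in controls and 69.0, 59.0, 58.5 and 48.3 CPM in mutants, which did not overlap. The fall in centrocytes, 0.66 ± 0.15 (adjusted p = 0.00561), was past the threshold whichever 1 library was left out, and was the largest genotype fall among the 54 genes in edgeR. This call was lost without mutant centrocyte libraries 3 and 4 together (-0.53, 0.0902). The call in centroblasts (-0.50 ± 0.15, adjusted p = 0.0358) was lost without control library 1, 2 or 3 (0.109, 0.102 and 0.0535) or any 1 of the 4 mutant libraries (0.0611, 0.0784, 0.0653 and 0.0923).

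Cdc7 did not fall between zones, with a difference of 0.24 ± 0.15 in controls (edgeR adjusted p = 0.25) and 0.08 ± 0.15 in mutants (0.776). Its partner Dbf4 fell in mutant centrocytes against centroblasts (-0.43 ± 0.14, adjusted p = 0.0422). That call was lost on leaving out 11 of the 16 libraries, all but control centroblast 1 and 4, mutant centroblast 4 and control centrocyte 2 and 3, with an adjusted p of up to 0.118. In controls the Dbf4 difference between zones was -0.36 ± 0.14 (adjusted p = 0.0575, and 0.00142 with the GC and length offset).

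Among the 9 polymerase genes, Pole and Pold3 fell in mutant centroblasts and Pole in mutant centrocytes. Pole encodes the catalytic subunit of polymerase epsilon, which copies the leading strand. It read 226, 213, 220.1 and 205 CPM in control centroblasts and 175, 143, 148 and 178 in mutant centroblasts, and 223, 185, 222 and 199 CPM in control centrocytes and 162, 145, 125 and 159 in mutant centrocytes. No mutant library reached a control library of its cell type. The falls were 0.42 ± 0.10 (edgeR adjusted p = 0.013) and 0.49 ± 0.10 (0.00408), and the call in centroblasts was at the threshold without mutant library 2 (0.0508). Between zones Pole differed little, by -0.06 ± 0.10 in controls and by -0.12 ± 0.10 in mutants.

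Pold3, an accessory subunit of polymerase delta, averaged 107 ± 6.23 CPM in control and 83.7 ± 6.50 CPM in mutant centroblasts, which did not overlap. It fell by 0.35 ± 0.093 (edgeR adjusted p = 0.0207), and the call was lost without control library 2 (0.055) or mutant library 1 or 4 (0.062 and 0.0624). Pold1, the catalytic subunit of polymerase delta and the polymerase gene with the highest mean CPM, passed in no comparison of the reported fit. With the GC and length offset it was lower in centrocytes of controls (-0.43, adjusted p = 0.000694) and mutants (-0.45, 0.000875) and in mutant centrocytes against controls (-0.23, 0.0491). Its control centroblast libraries read 137, 242, 284 and 336 CPM against 249.9, 226, 194 and 214 CPM in mutants. Pola1, of the primase complex that starts each new strand, averaged 210.2 ± 66.9 CPM in control centroblasts, from 119.5 to 265, against 147, 154, 123 and 135 CPM in control centrocytes. The lowest centroblast library was below all of these centrocyte libraries. It fell between these groups by 0.59 ± 0.20 (adjusted p = 0.0367), and the call was lost without control centroblast library 1, 2 or 3 (0.0982, 0.105 and 0.0533) or control centrocyte library 3 or 4 (0.096 and 0.0845).

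The sliding clamp and its loader passed mainly between zones. PCNA rings hold polymerases on DNA, and replication factor C, RFC1 to RFC5, opens and loads them. Of the 6 genes 0 passed in either genotype comparison by edgeR, where 5 in centroblasts and 0 in centrocytes had an unadjusted p under 0.05 and DESeq2 called 3 and 0. With the GC and length offset Pcna (adjusted p = 0.0334) and Rfc4 (0.0032) passed in centroblasts and Rfc4 (0.0417) in centrocytes. In control centrocytes 4 of the 6 fell. Rfc4 read 142, 121, 91.7 and 111 CPM in control centroblasts and 80.1, 76.1, 59.6 and 66.0 CPM in control centrocytes, without overlap, and fell by 0.73 ± 0.16 (adjusted p = 0.00282), the largest zone fall among the 54 genes. Pcna read 357, 342, 382 and 391 CPM in control centroblasts and 304, 339, 277 and 258 in mutant centroblasts, also without overlap, while its genotype difference missed the threshold (-0.32 ± 0.11, adjusted p = 0.0772). Rfc1, the large subunit and the gene of the group with the highest mean CPM, passed in none of the 4 group comparisons of the reported fit, with differences of -0.31 to -0.18 on the log2 scale. Without control centroblast library 4 it passed between genotypes in centroblasts (edgeR adjusted p = 0.0169) and between the zones of controls (0.0367).

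All 5 genes of single-strand binding and lagging-strand joining fell in control centrocytes, by 0.35 to 0.68 on the log2 scale, and 1 of the 5 in mutant centrocytes. The call of Fen1 in controls was lost with the block within genotype, and with the GC and length offset Fen1 and Lig1 also passed in mutants (adjusted p = 0.00512 and 0.00359). RPA1, RPA2 and RPA3 coat unwound DNA, FEN1 trims the flaps between Okazaki fragments and LIG1 seals them. Rpa1 read 690.1, 682, 647 and 735 CPM in control centroblasts and 537, 448, 449.6 and 441 CPM in control centrocytes. The groups lay apart, and the fall was 0.55 ± 0.10 (edgeR adjusted p = 0.000607). In mutants it read 598, 569, 609 and 665 CPM in centroblasts and 454, 472, 444 and 560.3 CPM in centrocytes, just without overlap, a fall of 0.34 ± 0.10 (adjusted p = 0.0274). That call was lost without mutant centroblast library 1, 3 or 4 (0.0521, 0.0666 and 0.0915) or mutant centrocyte library 1, 2 or 3 (0.0879, 0.0753 and 0.0678). Between genotypes the Rpa1 difference was -0.17 ± 0.10 in centroblasts (adjusted p = 0.33), and in centrocytes it was 0.04 ± 0.10 (0.815). Rpa3, the smallest of the 3 subunits, averaged 44.5 ± 10.3 CPM in centroblasts of controls and 27.8 ± 4.59 CPM in their centrocytes, a fall of 0.68 ± 0.19 (adjusted p = 0.0136, and 0.0526 without control centrocyte library 3). Exons of genes on the other strand cover 84.2% of the exon bases of Fen1, so its level is uncertain.

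Of the 5 genes of nucleotide supply, ribonucleotide reductase and dUTPase fell and the thymidylate genes did not. RRM1 and RRM2 are the subunits of the reductase that makes deoxynucleotides, and DUT clears dUTP so that uracil is not built into DNA. Rrm2 read 434, 399, 376 and 406 CPM in control centroblasts and 308, 272, 323 and 287 CPM in mutant centroblasts. In control centrocytes it read 329, 302, 289.8 and 308 CPM and in mutant centrocytes 239.8, 226, 257 and 268 CPM. The genotypes did not overlap in either cell type. Rrm2 fell in mutants by 0.44 ± 0.089 in centroblasts (edgeR adjusted p = 0.00325) and by 0.31 ± 0.089 in centrocytes (0.0239). The call in centrocytes was lost without control library 1 or 4 (0.0521 and 0.059) or mutant library 1 or 2 (0.0566 and 0.0816).

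Rrm1 read 782, 692, 672 and 709.6 CPM in control and 556, 538, 592 and 562 CPM in mutant centroblasts, well apart. It fell by 0.34 ± 0.094 (edgeR adjusted p = 0.025), and the call was lost on leaving out control library 1 or 2 (0.068 and 0.0505) or mutant library 1, 2 or 4 (0.0694, 0.0768 and 0.0546), and with the GC and length offset (-0.18, adjusted p = 0.366). Between zones it fell by 0.56 ± 0.095 in controls (0.00031) and by 0.42 ± 0.094 in mutants (0.00486). In centrocytes its genotype difference was -0.20, not past the threshold.

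Dut read 299, 260.5, 278 and 326 CPM in control centroblasts and 205, 219.5, 204 and 233 CPM in mutant centroblasts, without overlap. It fell by 0.43 ± 0.11 in mutant centroblasts (edgeR adjusted p = 0.02), by 0.65 ± 0.11 between the zones of controls (0.000509) and by 0.48 ± 0.11 between those of mutants (0.00771). The genotype call was lost without mutant library 1 or 3 (0.0642 and 0.0573). Tk1, the thymidine kinase of the salvage pathway, and Tyms, the thymidylate synthase, are often used as S phase transcripts and passed in no comparison of the reported edgeR fit. Tyms was higher in mutant centrocytes with the GC and length offset, as given above. Tk1 averaged 93.6 ± 21.6, 93.3 ± 10.1, 109.8 ± 7.58 and 106 ± 7.49 CPM in control centroblasts, mutant centroblasts, control centrocytes and mutant centrocytes (SD, n = 4). Tyms averaged 61.2 ± 4.62, 61.5 ± 4.96, 56.5 ± 4.11 and 65.8 ± 10.4 CPM in the same order.

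**Figure D4:**
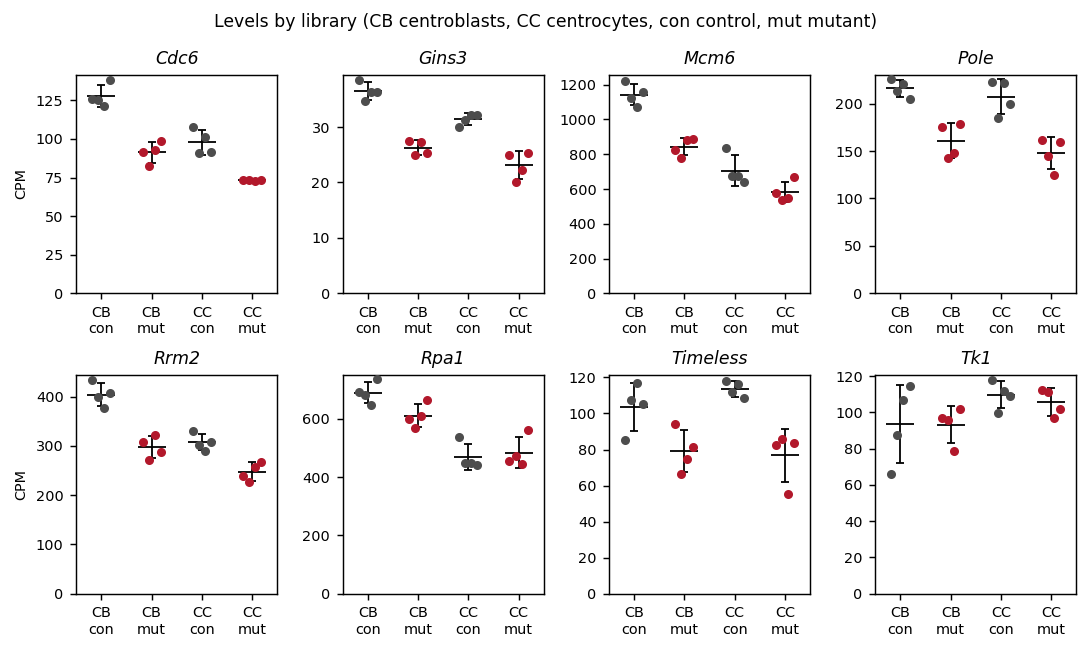
CPM (y axis, from 0) of 8 replication genes in each library, by cell type and genotype, with the mean and SD of each group. For Cdc6, Gins3, Pole and Rrm2 the mutant points lie below the control points in both cell types, Rpa1 separates the cell types, Timeless separates the genotypes in centrocytes alone, and the groups of Tk1 overlap.

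Claspin (Clspn), TIMELESS and TIPIN hold the helicase to the polymerases and pass on the checkpoint signal, and WDHD1 (AND-1) ties polymerase alpha to the helicase. In mutant centroblasts 2 of the 4 genes fell and in mutant centrocytes 3, while 1 of the 4 (Tipin, -0.57) fell between the zones of controls and 0 between those of mutants by edgeR, where 1 had an unadjusted p under 0.05 and DESeq2 called 0. Tipin passed there with the GC and length offset (adjusted p = 0.0253). In centrocytes Timeless read 118, 112, 117 and 108 CPM in controls and 82.5, 85.9, 55.1 and 83.4 CPM in mutants. Mutant library 3 was far below the rest, and the groups did not overlap. The fall was 0.57 ± 0.14 (edgeR adjusted p = 0.00978), and it was past the threshold whichever 1 library was left out. The call was lost without mutant centrocyte libraries 3 and 4 together (0.0888). In centroblasts Timeless read 85.2, 107, 117 and 105 CPM in controls and 94.0, 66.3, 74.7 and 81.5 CPM in mutants, which overlap (-0.39 ± 0.14, adjusted p = 0.0855). The difference between cell types in this genotype effect was -0.18 ± 0.20 (adjusted p = 0.999), so it is not shown to be particular to centrocytes.

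Clspn fell by 0.42 ± 0.12 in mutant centroblasts (edgeR adjusted p = 0.0246) and by 0.50 ± 0.12 in mutant centrocytes (0.00721). It read 185, 193, 214 and 159 CPM in control centroblasts and 170.0, 138, 129.6 and 122 CPM in mutant centroblasts, with overlap, and 186, 162, 184 and 174 CPM against 141, 119, 112 and 127 CPM in centrocytes, without. The call in centroblasts was lost on leaving out control library 2 or 3 (0.0579 and 0.0896) or mutant library 2, 3 or 4 (0.0541, 0.0626 and 0.0728) and with the GC and length offset (0.0611). The call in centrocytes was lost without mutant centrocyte libraries 3 and 4 together (0.0905). Wdhd1 averaged 189 ± 28.4 CPM in control and 148 ± 3.32 CPM in mutant centroblasts, and 174 ± 5.75 CPM in control and 135 ± 9.13 CPM in mutant centrocytes (SD, n = 4), without overlap in either. It fell by 0.36 ± 0.097 (adjusted p = 0.0229) and by 0.37 ± 0.097 (0.0156). The call in centroblasts was lost without control library 1 or 2 (0.0609 and 0.059) or mutant library 2 or 3 (0.0535 and 0.0548), and that in centrocytes without mutant centrocyte libraries 3 and 4 together (0.119).

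Of the chromatin assembly pair, which lays histones on new DNA, the large subunit Chaf1a fell between genotypes and Chaf1b between the zones of controls in the reported fit. With the GC and length offset Chaf1a was also lower in centrocytes of controls (-0.44, adjusted p = 0.00247) and mutants (-0.42, 0.00562). Chaf1a read 158, 186, 201 and 222 CPM in control centroblasts and 153, 109.6, 133 and 158 CPM in mutant centroblasts, where the lowest control and the highest mutant library met. In centrocytes it read 185, 146, 165 and 155 CPM in controls and 124, 124, 84.6 and 126 CPM in mutants, without overlap. By edgeR it fell by 0.47 ± 0.15 (adjusted p = 0.047) and by 0.51 ± 0.15 (0.0242). The call in centroblasts was lost on leaving out 12 of the 16 libraries, all but control centroblast 1, mutant centroblast 4, control centrocyte 1 and mutant centrocyte 3, with an adjusted p of up to 0.153. The call in centrocytes was lost without control library 1 or 3 (0.0594 and 0.0588) or mutant library 3 (0.0696). Exons of Ubxn6 on the other strand cover 52.5% of the exon bases of Chaf1a, and reads of the pair cannot be told apart without strand. Chaf1b averaged 105 ± 10.9, 101 ± 8.63, 80.8 ± 14.6 and 85.2 ± 3.20 CPM in control centroblasts, mutant centroblasts, control centrocytes and mutant centrocytes, with a fall of 0.38 ± 0.12 between the zones of controls (adjusted p = 0.0222).

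In all, 16 of the 54 genes passed in none of the comparisons by the reported edgeR fit: Orc1 to Orc5, Cdt1, Gins4, Pola2, Prim1, Pold1, Pold2, Pole2, Rfc1, Rfc2, Tk1 and Tyms. DESeq2 called 2 of them (Gins4 and Orc1) and the GC and length offset 7 (Cdt1, Orc2, Orc3, Orc5, Pold1, Prim1 and Tyms) in at least 1 comparison, and 4 (Orc4, Pold2, Pole2 and Tk1) passed under no alternative run. Many of them varied widely within a group, and this spread followed the GC content of the transcript. In control centroblasts the log2 ratio of library 4 to library 1 ran from -1.83 for Orc4 (36.8% GC) to 1.29 for Pold1 (61.0% GC), with a Pearson correlation with GC content of 0.86 over the 54 genes, a description within 1 pair of libraries. The 12 genes of lowest GC content summed to 2199 CPM in library 1 and 1625 CPM in library 4, and the 12 of highest GC content to 3180.1 and 4617 CPM, so that both libraries had similar totals with different members. The genotype and zone differences themselves had Spearman correlations with GC content of -0.06 to 0.12 over the 54 genes. Without control centroblast libraries 1 and 4, 10 of the 54 genes fell in mutant centroblasts and 49 were below 0, with a median of -0.28.

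**Figure D5:**
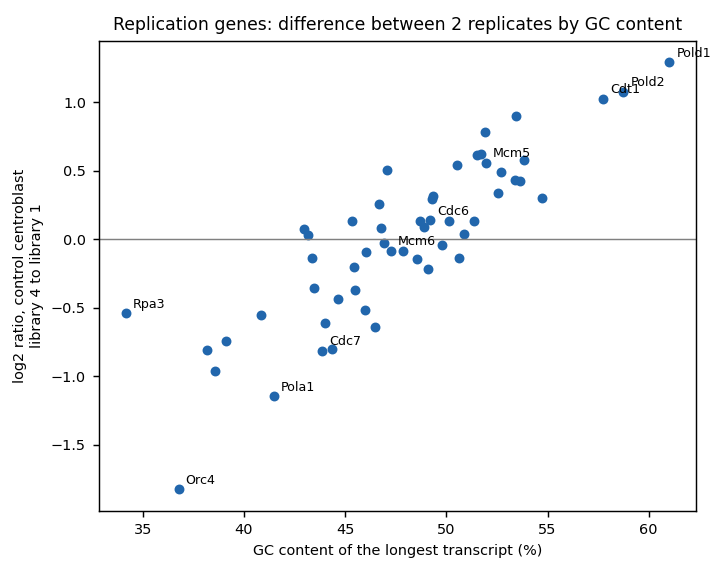
Log2 ratio of control centroblast library 4 to library 1 (y axis) against the GC content of the longest transcript (x axis, percent) for each of the 54 genes; 0 means equal CPM. The points rise from -1.83 at Orc4 to 1.29 at Pold1, although both libraries belong to 1 group.

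Genes outside the machinery that serve replication gave similar counts. Of 41 other replication genes (further helicases, nucleotide enzymes, histone chaperones and firing factors) 11 fell and 1 rose in mutant centroblasts, and 7 fell and 0 rose in mutant centrocytes, with medians of -0.24 and -0.17. Of all tested genes 6.4% fell in mutant centroblasts and 9.15% in mutant centrocytes. Donson, a replisome factor, fell from 51.4 ± 8.75 to 35.5 ± 3.36 CPM in mutant centroblasts (SD, n = 4, edgeR adjusted p = 0.00687). Slbp, which binds histone mRNA, fell from 295 ± 21.1 to 220.3 ± 20.3 CPM (0.00549), and Dtl, which marks CDT1 for destruction, from 162 ± 29.0 to 112 ± 14.2 CPM (0.00845). Dctd, a deaminase of dCMP, was the 1 that rose, from 3.10 ± 0.341 to 5.49 ± 0.638 CPM (0.000913). In mutant centrocytes Ticrr (TRESLIN, a firing factor), Top2a and Recql4 fell by 0.54 ± 0.12, 0.56 ± 0.13 and 0.52 ± 0.13.

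Between zones Dck and Dctd, nucleotide enzymes of this second list, moved further than any of the 54 genes. In controls 13 of the 41 fell and 1 rose, and in mutants 8 fell and 1 rose, where 12.9% and 7.07% of all tested genes fell. Dck, a deoxynucleoside kinase, averaged 682 ± 138 CPM in centroblasts of controls and 329.9 ± 25.7 CPM in their centrocytes (-1.05 ± 0.12, edgeR adjusted p = 8.15e-06). Dctd rose from 3.10 ± 0.341 to 8.86 ± 0.832 CPM (1.51 ± 0.14, 8.64e-07). The histone chaperone Asf1a fell by 0.94 ± 0.15 (0.000241).

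Of 14 genes that control entry into S phase 4 fell and 1 rose in mutant centroblasts, and 2 fell and 0 rose in mutant centrocytes. Over all tested genes 6.4% fell and 4.06% rose in mutant centroblasts, and 9.15% and 7.37% in mutant centrocytes. Cdkn1b, the 1 that rose, averaged 18.5 ± 5.32 CPM in control and 30.4 ± 4.09 CPM in mutant centroblasts (SD, n = 4, edgeR adjusted p = 0.0246). That call was lost without control library 2, 3 or 4 or mutant library 1, 2 or 3, with an adjusted p of up to 0.0815. E2f8 and E2f7, E2F family members that repress S phase genes, were lower in mutants of both cell types. E2f8 averaged 149 ± 6.66 CPM in control and 98.5 ± 12.6 CPM in mutant centroblasts (-0.60 ± 0.11, edgeR adjusted p = 0.0017), and 128 ± 6.85 and 76.9 ± 10.8 CPM in centrocytes (-0.73 ± 0.11, 0.000329). Myc, which drives selected centrocytes back into the cycle, went the other way from the replication genes between zones: it averaged 24.7 ± 6.65 CPM in centroblasts of controls and 68.5 ± 8.43 CPM in their centrocytes (1.47 ± 0.20, 4.56e-05). Of 32 mitosis genes 4 fell in mutant centroblasts, 22 in mutant centrocytes, 20 between the zones of controls and 26 between those of mutants, and 0 rose in any of these. Their medians were -0.29, -0.49, -0.63 and -0.85, beside -0.30, -0.20, -0.37 and -0.25 for the 54 replication genes in the same order. Of all tested genes 6.4%, 9.15%, 12.9% and 7.07% fell in these comparisons.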

How the data were processed

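The authors deposited read counts per gene for 16 libraries. Per the submitters' processing notes the tools named were Trim Galore, cutadapt, STAR 2.5.3a, Subread and featureCounts 1.4.5-p1, with the build mm10. The gene annotation and the strand setting of the counting are not given in the sources used here. Counts of 92 spike-in sequences, 3 reads in all, were left out. Genes were filtered with filterByExpr, scaled by TMM and tested with edgeR 4.0.16 (R 4.3.3) by quasi-likelihood, with 1 mean per group over all 16 libraries (12 residual degrees of freedom) and Benjamini-Hochberg adjustment over 15240 genes. Differences are log2 fold changes with their SE, and the fit was tested on simulated data. Library totals of 35230563 to 44466911 reads leave little counting error for these genes. DESeq2 1.42.0, other scalings and filters, a replicate block, sex, GC content with length and left-out libraries were alternatives.

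The members and lists were chosen with earlier results of these data known. A gene is named if it passed between genotypes, is among the 5 largest zone changes per direction or has the highest mean CPM of its role, and from the lists of other replication genes and S phase control up to 3 per direction. Not every gene that this rule names in these lists is reported here. Mcm3, Mcm5, Gins1, Gins2, Gins4, Pcna, Tipin, Chaf1b, Fen1, Tk1, Tyms, the other genes that passed nowhere and values of named genes in further comparisons were added after their values were seen. Exon overlap, GC content and length come from GENCODE M21 (GRCm38). Same-numbered libraries were checked for shared deviations. Only the zone comparison in mutants had every pair correlated above 0.1, at 0.263 to 0.327.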

Additional observations from a re-analysis of the deposited data

Results flagged for a closer look

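In 9 of 116 groups of 4 libraries examined, 1 library lay far from the other 3, and chance gives this in about 5% of groups. Control centrocyte library 1 accounted for 5 of the 9. Its summed level of the 54 genes was 11144 CPM against 9311 to 9538 CPM in the others. In the same library Cdc45 was at 141.95 CPM (112 to 115 in the others), Rfc1 at 524.79 (430.4 to 441), Rpa1 at 536.77 (441 to 449.6) and Rrm1 at 552.01 (454 to 467). Mutant centrocyte library 3, one of those with a high macrophage sum, accounted for 3: Chaf1a at 84.648 CPM (124 to 126 in the others), Timeless at 55.054 (82.5 to 85.9) and Gmnn at 97.277 (74.8 to 77.8). In control centroblast library 4 Rfc1 was at 375.84 CPM, against 577 to 590.3 in the others.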

How the results depend on the processing

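The number of genes lower in mutant centroblasts (15) was 8 with only the compared groups, 24 with the GC and length offset, 23 with that offset and a replicate block, 7 in males, 0 in females and 8 to 20 on leaving out 1 library. In centrocytes (11) it was 7 without the filter, 5 without mutant centrocyte libraries 3 and 4, 3 in males, 4 in females and 8 to 13 on leaving out 1 library, and the offset gave 3 higher genes, with or without the block. Between the zones of controls (29) it was 8 in males and 22 to 30 on leaving out 1 library. Between the zones of mutants (13) it was 26 with the offset, 27 with offset and block, 7 in males, 0 in females and 7 to 16 on leaving out 1 library. The replicate block alone gave 16, 11, 29 and 14 in the same order. The percentages of all tested genes called come from the reported edgeR fit and were not taken for the alternatives. Correlations between same-numbered libraries ran from -0.028 to 0.344 for the genotypes of centroblasts, from -0.089 to 0.123 for those of centrocytes and from -0.006 to 0.452 for the zones of controls, so these were not treated as paired, although same-numbered libraries share sex. The block within each genotype and leaving out control centroblast libraries 1 and 4 were chosen after the data were seen. Of the 45 calls of named members 26 were past the threshold whichever library was left out. Changes of sign were seen only in differences that had not passed: Gmnn in centrocytes (0.094 in females), Pold1 in centroblasts (0.319 in males), Pold1 between the zones of controls (0.186 in males, and -0.323 to 0.054 on leaving out 1 library), Rpa1 in centrocytes (-0.012 without mutant centrocyte libraries 3 and 4, -0.099 in males, and -0.044 to 0.107 on leaving out 1 library), Rrm1 in centrocytes (0.005 with the offset, and 0.005 with offset and block) and Wdhd1 between the zones of controls (0.016 in females). The cause was not tested. Males and females alone have 2 libraries per group.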
